A study of Mus musculus with 8 samples.

Results

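The 52 genes described here are the chemokines and chemokine receptors of a 25078-gene count table of mouse liver, chosen as the entries whose symbol begins as a chemokine or chemokine receptor symbol and whose counts over the 8 libraries sum to at least 10. They are 30 ligands, 18 receptors and 4 atypical receptors. Chemokines are small secreted proteins that guide migrating leukocytes, and their receptors are proteins with several membrane passes that signal through Gi proteins to the cytoskeleton. In fatty liver, Kupffer cells, hepatocytes, stellate cells and endothelium release chemokines, and monocytes, lymphocytes and neutrophils carry most of the receptors. Atypical receptors (Ackr genes) bind chemokines without G protein signalling and remove, hold or transport them. Another 8 symbols fitted the pattern but summed to less, and 5 of these (Ccl21b, Ccl21c, Ccl26, Ccl27b and Cxcl15) were at 0 in every library. Just outside the limit lay Cxcl3 and Ccr10 with 2 counts each and Ccl1 with 1, and just inside lay Cxcl17 with 10 and Ccr8 with 12. Ccl19 and Ccl21a were not analysed here. Pf4 and Ppbp, which are chemokines under other symbols, are counted with the related genes at the end.

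The libraries were made from liver messenger RNA of 8 male C57/BL6 mice, all kept for 25 weeks on a diet rich in fat, fructose and cholesterol. By the genotype label, 5 were wild type and 3 were Midn hemizygotes, titled Het and called het-labelled here. Per the design text the Midn knockout was global, so a tissue-specific promoter or Cre is not part of the model, and heterozygotes stood in because homozygotes mostly died as embryos. No group on a standard diet was analysed here, and the labels do not say whether the groups were littermates. The study asks what midnolin, a nuclear protein that brings short-lived transcription factors to the proteasome, does in fatty liver disease. For the genes here the question is whether their messenger RNA differed between the genotypes.

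Library totals ran from 17508221 to 24916239 counts, and the 52 genes took between 0.0494 and 0.102% of them. Values are CPM, that is TMM-scaled counts relative to library depth, unless RPKM (read counts per exon length and library depth, as deposited) is named. Midn checks the labels: it stood at 68.7, 39.8, 71.5, 41.7 and 29.3 CPM in wild-type libraries 1 to 5 and at 60.4, 39.1 and 51.7 CPM in het-labelled libraries 1 to 3, so its level did not separate the genotypes, and every direction below is that of the label. Hepatocyte markers were abundant in all libraries, Alb at 28649 ± 2117 CPM (SD, n = 5) for wild type and 42206 ± 12089 CPM (SD, n = 3) for the het-labelled group. Rpph1, an RNA without a poly(A) tail, took 0.673 to 1.06% of counts in wild-type libraries 2, 4 and 5 and 0.229 to 0.399% in the other 5 libraries, wild-type libraries 1 and 3 among them. Het-labelled library 2 also stood apart from the other two of its group in what follows. Values without some of these libraries are given beside many of the genes shown by library and beside other results that moved widely. A value that is not given does not mean that the gene was stable.

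Most chemokine and receptor genes had fold changes towards lower levels in the het-labelled livers, but none passed an adjusted p of 0.05 in edgeR. Of the 52, 40 passed the filter on low counts and were tested. The log2 fold change, het-labelled minus wild type, was below 0 for 32 and above 0 for 8, with a median of −0.74 against 0.00 over all 14438 genes tested. In edgeR's quasi-likelihood test 0 of the 40 passed a Benjamini-Hochberg adjusted p of 0.05, as did 0% of all genes tested, and the smallest adjusted p among the 40 was 0.259. An unadjusted p under 0.05 with a lower level was found for 6 of the 40 (15%), among them Ccl8, Cxcl16, Ccl9, Cxcl9 and Ccl5. The same limit was met by 5.43% of all genes tested in that direction. In the other direction 0 of the 40 met it, against 10.3% of all genes. Every het-labelled library lay below every wild-type library for Ccl8 and Cxcl16 (5% of the 40, against 2.32% of all genes), and above every wild-type library for 0 of the 40 (7.54% of all genes). DESeq2 called Ccl8 alone as lower at an adjusted p of 0.05, where it called 0.528% of all genes, and 0 of the 40 as higher, where it called 0.694%. At an unadjusted p under 0.05 DESeq2 had 11 of the 40 lower and 0 higher, against 7.17% and 6.96% of all 19158 genes it fitted. These include genes too low for the filter that the 40 passed, so the sets are unlike. DESeq2 also had 2 of the 12 genes that edgeR did not test lower.

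**Figure D1:**
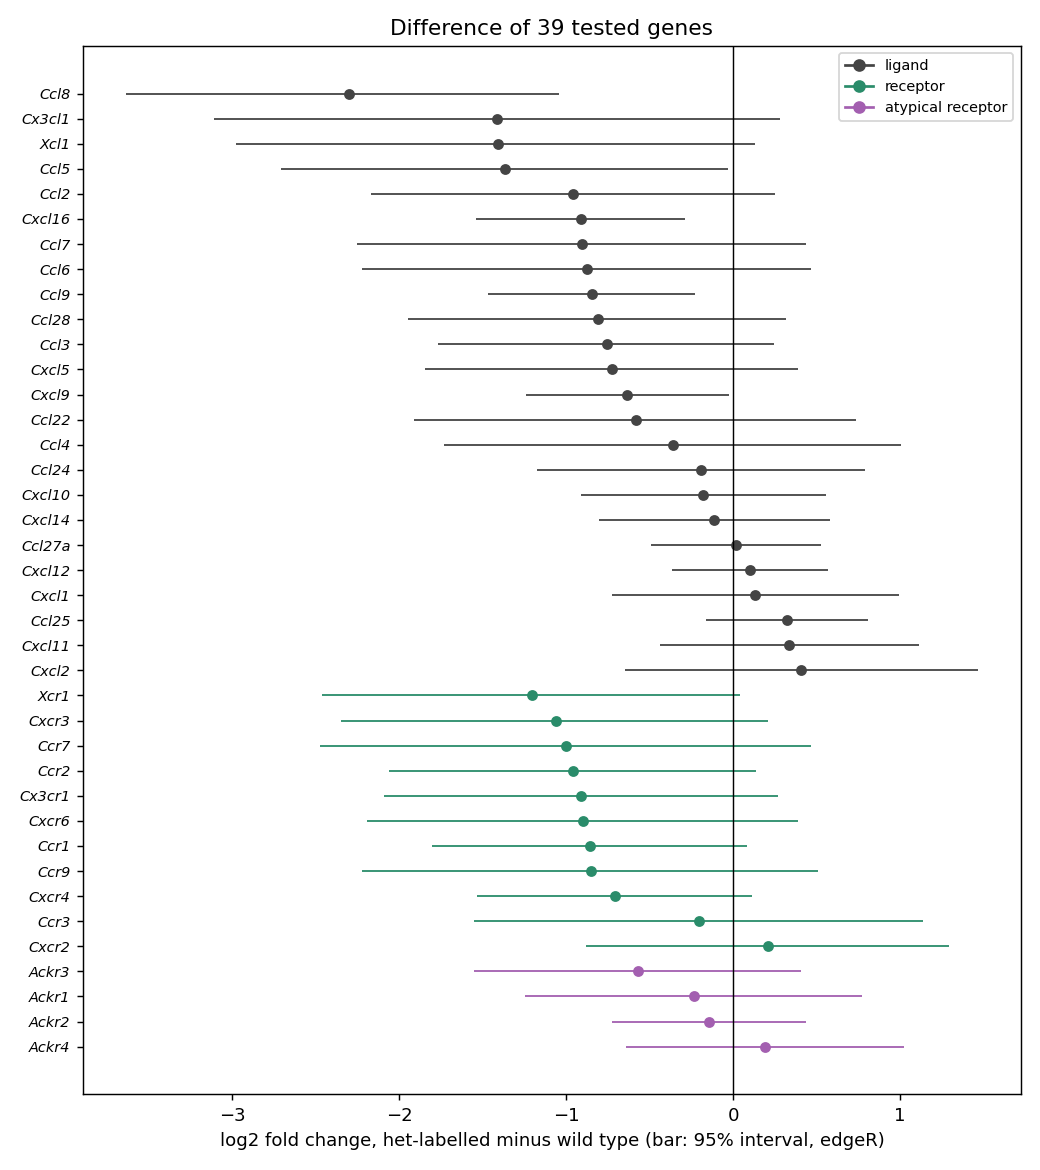
Log2 fold change, het-labelled minus wild type, of 39 tested genes from edgeR (points) with 95% intervals (bars), grouped into ligands, receptors and atypical receptors. Of the 39 points, 31 lie left of 0, and the intervals of 5 lie wholly left of it.

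The libraries did not contribute equally to this pattern. Of the 40 tested genes, the number below every wild-type library was 20 for het-labelled library 1, 21 for library 3 and 6 for library 2, which had the highest het-labelled value for 29. As shares these were 50, 52.5 and 15% of the tested genes, against 18.2, 19.0 and 7.67% of all genes tested. The median log2 fold change of the tested genes was −1.12 without het-labelled library 2, −0.54 without library 1 and −0.53 without library 3. Lower genes at an unadjusted p under 0.05 numbered 15, 3 and 2 in these fits, where all genes tested were lower in 11.1, 1.5 and 1.67%, and 0 passed the adjusted threshold in any of them.

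Wild-type libraries 2, 4 and 5 alone, set against the 3 het-labelled libraries, gave 5 genes lower at an adjusted p of 0.05 (edgeR), among them Ccl9, Cxcl9, Ccl2 and Ccl8. All genes tested were called lower there in 10.5%, and 18.7% were lower at an unadjusted p under 0.05, against 10 of the 39 tested chemokine and receptor genes. With wild-type libraries 1 and 3 as the only wild type, 0 passed the adjusted threshold (0.0478% of all genes did as lower), and 10 of 41 were lower at an unadjusted p under 0.05 (14.9% of all genes). The medians were −0.57 and −0.53. The labels give no batch, and whether the library share of Rpph1 had a part in these differences was not tested.

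The Ccl2 to Ccl8 gene group on mouse chromosome 11 (82035577 to 82179812, mm10) holds the monocyte chemoattractants Ccl2, Ccl7 and Ccl12. It also holds Ccl8, set beside the receptor Ccr8 in the pairs used below, Ccl11, an eosinophil attractant, and Ccl1. All 3 of its tested genes were lower in the het-labelled livers by fold change. Ccl8 (82115185 to 82116799, plus strand), also called MCP-2, had the lowest fold change of all tested chemokine genes. It stood at 0.888, 0.515, 0.784, 0.824 and 1.20 CPM in wild-type libraries 1 to 5 and at 0.138, 0.323 and 0.0477 CPM in het-labelled libraries 1 to 3. The groups did not overlap, but the counts were small, 10 to 21 in wild type and 3, 6 and 1 in the het-labelled libraries. That gave a log2 fold change of −2.30 (SE 0.58; adjusted p = 0.259, edgeR), and DESeq2 gave −2.39 (adjusted p = 0.0321). The deposited RPKM was 1.62 ± 0.48 (SD, n = 5) for wild type and 0.32 ± 0.27 (SD, n = 3) for the het-labelled group. The fold change of Ccl8 was −3.08 without het-labelled library 2, −2.35 against wild-type libraries 2, 4 and 5 and −2.36 against wild-type libraries 1 and 3.

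Ccl2 (82035577 to 82037452, plus strand), the main ligand of Ccr2 and the chemokine best known for drawing monocytes into fatty liver, varied more within wild type than between the groups. It stood at 3.46, 6.54, 3.29, 13.9 and 12.3 CPM in wild-type libraries 1 to 5 and at 2.81, 5.60 and 3.76 CPM in het-labelled libraries 1 to 3. Wild-type libraries 4 and 5 were high, and wild-type libraries 1 and 3 lay among the het-labelled ones. Ccl2 had a log2 fold change of −0.96 (SE 0.54; adjusted p = 0.390, edgeR). Against wild-type libraries 2, 4 and 5 it was −1.47 (adjusted p = 0.0333, edgeR), and against wild-type libraries 1 and 3 it turned to 0.20. Ccl7, another Ccr2 ligand, is outside the rule for genes shown by library and had a log2 fold change of −0.90 (SE 0.60), −1.35 against wild-type libraries 2, 4 and 5 and −0.06 against wild-type libraries 1 and 3.

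Ccl12, a mouse Ccr2 ligand next to Ccl8, did not pass the filter on low counts and has no test in edgeR. It had 4, 13, 8, 5 and 4 counts in wild-type libraries 1 to 5 and 1 count in each het-labelled library, so the groups did not overlap at these few counts. DESeq2, which kept Ccl12, gave it an unadjusted p of 0.00907 and no adjusted p. Ccl11 summed to 28 counts, between 1 and 6 in each library. Ccl2, Ccl7, Ccl8 and Ccl12 are close relatives in sequence, and reads may have been shared between them.

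Ccl8 and Ccl12 were the ligands whose groups did not overlap in this gene group, so the 250 bases before their start sites are shown (RefSeq, GRCm38.p6; both plus strand, chr11:82114935-82115184 for Ccl8 and chr11:82101595-82101844 for Ccl12; 5′ to 3′). Capitals mark a match to the TATA box letters TATAAA, the only motif of those searched that either window holds.
Ccl8: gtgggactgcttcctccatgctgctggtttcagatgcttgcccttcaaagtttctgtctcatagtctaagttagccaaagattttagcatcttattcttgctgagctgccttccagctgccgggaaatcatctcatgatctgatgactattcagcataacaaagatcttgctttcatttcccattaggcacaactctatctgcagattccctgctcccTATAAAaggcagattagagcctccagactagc
Ccl12: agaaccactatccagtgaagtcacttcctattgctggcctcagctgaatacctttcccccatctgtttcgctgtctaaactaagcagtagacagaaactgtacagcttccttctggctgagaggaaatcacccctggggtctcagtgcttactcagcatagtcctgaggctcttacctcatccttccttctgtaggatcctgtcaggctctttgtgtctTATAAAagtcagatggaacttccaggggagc
In Ccl8 the match begins 32 bases before the start and in Ccl12 31 bases before it. On the gene strand these letters occurred in 9 of the 39 chemokine and receptor genes with a RefSeq promoter entry (23.1%) and in 8.12% of 27025 genes. A match is a description of the letters and was not tied to the measured levels.

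A further group on chromosome 11 (83525779 to 83664683) holds Ccl5, Ccl9, Ccl6, Ccl3 and Ccl4, inflammatory chemokines of macrophages and lymphocytes. All 5 had fold changes below 0, and 2 (Ccl9 and Ccl5) met an unadjusted p under 0.05. Ccl9 (83572917 to 83578636, minus strand), a rodent macrophage chemokine and Ccr1 ligand, ranked just behind Ccl6 and Cxcl12 among ligands at 30.2 RPKM over the 8 libraries. It stood at 84.8, 149.7, 71.5, 114 and 141 CPM in wild-type libraries 1 to 5 and at 57.0, 77.5 and 52.3 CPM in het-labelled libraries 1 to 3. Only wild-type library 3 fell within the het-labelled range. This amounted to a log2 fold change of −0.85 (SE 0.27; adjusted p = 0.265, edgeR), −1.16 against wild-type libraries 2, 4 and 5 (adjusted p = 0.0283, edgeR) and −0.39 against wild-type libraries 1 and 3 (adjusted p = 0.234, edgeR).

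Ccl6 (83587886 to 83593087, minus strand), also a rodent Ccr1 ligand made by macrophages, was the most abundant of all 52 genes per length at 61.2 RPKM. Its CPM were 44.4, 104, 38.3, 154 and 205 in wild-type libraries 1 to 5 and 30.2, 92.3 and 55.6 in het-labelled libraries 1 to 3. Wild-type libraries 1 and 3 were low and the groups overlapped. Ccl6 lies within the span of E230016K23Rik on the opposite strand. Overlap of their exons was not examined and the use of strand is not stated, so whether reads were shared is not known. Ccl6 and Ccl9 are close relatives. A log2 fold change of −0.88 (SE 0.60; adjusted p = 0.463, edgeR) became 0.47 against wild-type libraries 1 and 3 and −1.42 against the other 3.

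Ccl5, or RANTES (83525779 to 83530518, minus strand), a chemokine made by T and NK cells, showed the opposite order among wild-type livers. It had 11.3, 3.25, 6.69, 2.31 and 2.29 CPM in wild-type libraries 1 to 5 and 1.66, 2.85 and 1.52 CPM in het-labelled libraries 1 to 3. Here wild-type libraries 1 and 3 were the high ones, and wild-type libraries 4 and 5 lay below het-labelled library 2. On the log2 scale Ccl5 differed by −1.37 (SE 0.59; adjusted p = 0.312, edgeR), −2.22 against wild-type libraries 1 and 3 and −0.43 against wild-type libraries 2, 4 and 5. Ccl3 and Ccl4, macrophage inflammatory proteins, had values of −0.76 (SE 0.45) and −0.36 (SE 0.61).

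Over all CC ligands, 13 were tested, 11 had a fold change below 0, 3 met the unadjusted limit as lower and 0 as higher, and the median log2 fold change was −0.81. The exceptions in sign were Ccl25, the ligand of Ccr9, at 0.32 (SE 0.22) and Ccl27a, a skin chemokine, at 0.01 (SE 0.23), whose sign turned with the scaling (−0.04 with RLE size factors and −0.17 with library totals alone). Ccl22 and Ccl24, attractants of regulatory T cells and of eosinophils, and the mucosal chemokine Ccl28 ranged from −0.81 to −0.19. These genes fall outside the rule for genes shown by library.

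Cxcl16 (chromosome 11, 70454389 to 70459984, minus strand), a membrane-bound chemokine that also takes up oxidised lipoprotein and is the ligand of Cxcr6, was lower in all 3 het-labelled livers. It stood at 36.0, 49.7, 43.0, 33.9 and 43.9 CPM in wild-type libraries 1 to 5 and at 16.6, 33.8 and 15.3 CPM in het-labelled libraries 1 to 3. The groups did not overlap, but het-labelled library 2 lay only just below wild-type library 4. Cxcl16 had a log2 fold change of −0.91 (SE 0.28; adjusted p = 0.259, edgeR; DESeq2 adjusted p = 0.0698). It was −0.999 and −0.91 against wild-type libraries 2, 4 and 5 and against wild-type libraries 1 and 3, and −1.36 without het-labelled library 2. Cxcl16 overlaps Zmynd15 on the opposite strand over 552 bases, and since no source used here states the use of strand, reads from the overlap cannot be assigned to either.

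Cxcl9, Cxcl10 and Cxcl11 lie side by side on chromosome 5 (92321331 to 92363296), are induced by interferon gamma and share the receptor Cxcr3, yet their fold changes ran from −0.63 to 0.34. Cxcl9 (92321331 to 92328079, minus strand) stood at 36.9, 64.6, 33.5, 45.6 and 64.8 CPM in wild-type libraries 1 to 5 and at 34.8, 36.3 and 23.7 CPM in het-labelled libraries 1 to 3. Wild-type libraries 2 and 5 were high, and wild-type library 3 lay below het-labelled libraries 1 and 2. For Cxcl9 the log2 fold change came to −0.63 (SE 0.27; adjusted p = 0.306, edgeR), −0.93 against wild-type libraries 2, 4 and 5 (adjusted p = 0.0291, edgeR) and −0.22 against wild-type libraries 1 and 3. Cxcl10 and Cxcl11 had −0.18 (SE 0.32) and 0.34 (SE 0.34), and the value of Cxcl10 turned to 0.20 against wild-type libraries 2, 4 and 5. The spans of both overlap that of Art3 on the opposite strand. Overlap of exons was not examined and the use of strand is not stated, so whether reads were shared is not known.

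The neutrophil attractants Cxcl1, Cxcl2 and Cxcl5, ligands of Cxcr2 from another chromosome 5 group (90759298 to 90905938), had fold changes of 0.13 (SE 0.38), 0.40 (SE 0.47) and −0.72 (SE 0.49). The first 2 turned to −0.23 and −0.04 against wild-type libraries 2, 4 and 5, and Cxcl1 also to −0.03 with library totals alone. Cxcl1 ran from 5.64 to 18.5 CPM in wild type and from 9.96 to 19.8 CPM in the het-labelled libraries, a wide overlap. Cxcl1, Cxcl2 and Cxcl10 are shown because they are the ligands whose window holds more than 1 match to the NF-kB motif, through which inflammatory signals act on these genes. Their 250 bases before the start (RefSeq, GRCm38.p6, 5′ to 3′ on the gene's strand) are chr5:90890995-90891244 (plus) for Cxcl1, chr5:90903649-90903898 (plus) for Cxcl2 and chr5:92348890-92349139 (minus) for Cxcl10. Capitals mark motif matches: the NF-kB motif in each, and in Cxcl10 also the interferon-stimulated response element (ISRE), which is the first capital run, and the AP-1 letters TGANTCA, which are the last.
Cxcl1: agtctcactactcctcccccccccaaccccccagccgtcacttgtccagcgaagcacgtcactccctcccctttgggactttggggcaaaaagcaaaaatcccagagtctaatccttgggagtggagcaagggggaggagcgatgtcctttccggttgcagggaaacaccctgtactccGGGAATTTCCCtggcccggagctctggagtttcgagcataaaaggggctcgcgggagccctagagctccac
Cxcl2: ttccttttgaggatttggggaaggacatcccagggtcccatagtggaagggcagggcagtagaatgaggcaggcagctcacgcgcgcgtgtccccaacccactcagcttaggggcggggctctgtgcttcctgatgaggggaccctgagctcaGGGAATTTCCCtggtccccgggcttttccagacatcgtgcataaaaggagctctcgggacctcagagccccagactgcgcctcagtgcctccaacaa
Cxcl10: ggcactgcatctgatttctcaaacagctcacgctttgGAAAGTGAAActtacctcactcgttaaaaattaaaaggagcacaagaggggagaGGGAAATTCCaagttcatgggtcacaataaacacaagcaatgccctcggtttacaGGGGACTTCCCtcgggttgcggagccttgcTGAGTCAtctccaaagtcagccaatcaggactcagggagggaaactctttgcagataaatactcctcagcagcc
All motifs were sought on both strands except the TATA box, and in Cxcl1 and Cxcl2 the capital run holds a pair of overlapping NF-kB matches on opposite strands. The NF-kB motif occurred in 8 of the 39 genes with an entry, read at the first start listed for each gene (20.5%; Ackr2, Ccl20, Ccl9, Ccr1, Ccr3, Cxcl1, Cxcl10 and Cxcl2) and in 7.01% of 27025 genes. The ISRE occurred in 2 (Cxcl10 and Cxcl14) and in 3.04% of genes, the GAS letters TTCNNNGAA in 4 and in 7.18%, and AP-1 in 4 and in 6.87%. Genes with an NF-kB match had fold changes on both sides of 0, Ccl9 and Ccr1 among the lower and Cxcl1 and Cxcl2 among the higher.

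Cxcl12 (chromosome 6, 117168535 to 117181368, plus strand), a homeostatic chemokine of stellate cells and endothelium that retains cells carrying Cxcr4, was the second most abundant gene at 48.5 RPKM and had overlapping ranges in the genotypes. It had 432, 323, 412, 279 and 291 CPM in wild-type libraries 1 to 5 and 425, 375 and 318 CPM in het-labelled libraries 1 to 3. The difference was 0.10 on the log2 scale (SE 0.21, 95% interval −0.37 to 0.57; adjusted p = 0.802, edgeR), 0.28 against wild-type libraries 2, 4 and 5 and −0.24 against wild-type libraries 1 and 3. It was also below 0, at −0.11, with library totals alone. The 9 tested CXC ligands had a median of −0.11, with 5 below 0 and 2 of them (Cxcl16 and Cxcl9) at an unadjusted p under 0.05.

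Xcl1 (chromosome 1, 164931644 to 164935522, minus strand), a lymphocyte chemokine that attracts cross-presenting dendritic cells through Xcr1, stood at 0.844, 1.96, 0.598, 0.384 and 1.14 CPM in wild-type libraries 1 to 5. In het-labelled libraries 1 to 3 it had 0.369, 0.646 and 0.0953 CPM, the last from 2 counts. Xcl1 had a log2 fold change of −1.41 (SE 0.69; adjusted p = 0.342, edgeR), and −2.04 without het-labelled library 2. Cx3cl1, or fractalkine, a membrane-bound ligand of Cx3cr1, is outside the rule for genes shown by library and also had −1.41 (SE 0.75). Its wild-type libraries ran from 1.76 to 17.3 CPM and the het-labelled ones from 1.72 to 5.38 CPM. The value of Cx3cl1 was −0.44 against wild-type libraries 2, 4 and 5, −2.28 against wild-type libraries 1 and 3 and −2.09 without het-labelled library 2.

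**Figure D2:**
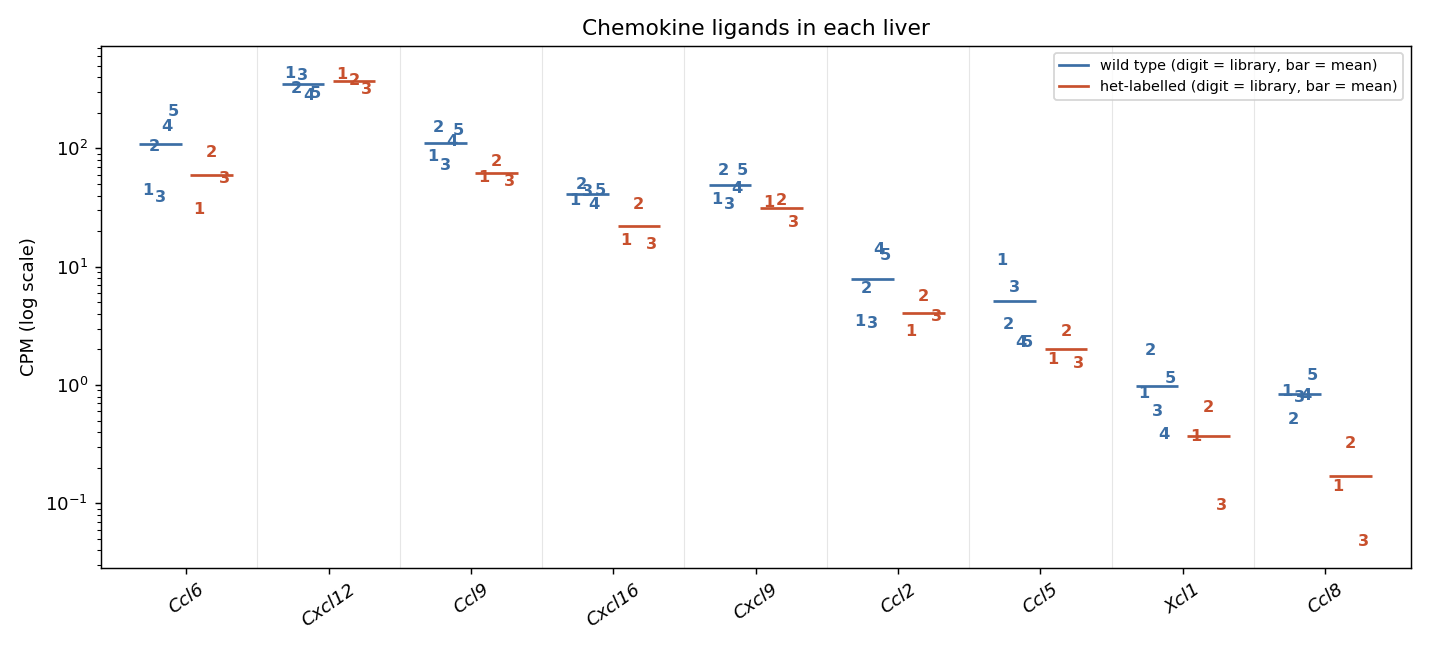
CPM on a log scale of the 9 ligands described by library, with each digit standing for that library of its group (blue, wild type; red, het-labelled) and each bar for the group mean. Ccl8 and Cxcl16 are the 2 ligands without overlap, and het-labelled library 2 is the highest of its group for all but Cxcl12.

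Of the 12 tested receptors, 11 had a fold change below 0, with a median of −0.88 (18 of 24 and −0.68 for the ligands). Of these receptors 1 met an unadjusted p under 0.05, and 0 met the adjusted threshold in edgeR. Ccr2 (chromosome 9, 124102183 to 124109140, plus strand), the receptor of inflammatory monocytes for Ccl2, was the most abundant receptor at 13.4 RPKM. It stood at 33.8, 93.0, 36.8, 64.1 and 75.6 CPM in wild-type libraries 1 to 5 and at 17.7, 57.3 and 18.5 CPM in het-labelled libraries 1 to 3. Het-labelled libraries 1 and 3 lay below every wild-type library, and het-labelled library 2 lay among them. The log2 fold change of Ccr2 was −0.96 (SE 0.49; adjusted p = 0.354, edgeR), −1.74 without het-labelled library 2 and −0.24 against wild-type libraries 1 and 3.

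Cx3cr1 (chromosome 9, 120048683 to 120068296, minus strand), the fractalkine receptor of patrolling monocytes and some tissue macrophages, stood at 4.06 RPKM. It had 26.3, 17.8, 30.4, 9.78 and 9.69 CPM in wild-type libraries 1 to 5 and 6.50, 18.1 and 5.48 CPM in het-labelled libraries 1 to 3. As for Ccl5, wild-type libraries 4 and 5 were the low ones of their group. On the log2 scale Cx3cr1 differed by −0.91 (SE 0.52; adjusted p = 0.400, edgeR), with −1.56 against wild-type libraries 1 and 3 and −0.35 against the other 3.

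Cxcr4 (chromosome 1, 128588199 to 128592299, minus strand), the Cxcl12 receptor found on most leukocytes, stood at 6.62, 8.40, 11.5, 6.48 and 8.01 CPM in wild-type libraries 1 to 5. In het-labelled libraries 1 to 3 it had 3.69, 8.50 and 2.91 CPM, so 2 of them lay below all wild-type libraries. Cxcr4 had a log2 fold change of −0.71 (SE 0.36; adjusted p = 0.360, edgeR), and −1.31 without het-labelled library 2. Ccr1 (chromosome 9, 123962126 to 123968692, minus strand), a macrophage and neutrophil receptor for Ccl3, Ccl6 and Ccl9, also had het-labelled libraries 1 and 3 below every wild-type library. Its CPM were 3.73, 6.13, 2.99, 5.16 and 4.58 in wild-type libraries 1 to 5 and 1.94, 4.30 and 1.24 in het-labelled libraries 1 to 3. Ccr1 had a log2 fold change of −0.86 (SE 0.42; adjusted p = 0.342, edgeR), −1.50 without het-labelled library 2 and −0.49 against wild-type libraries 1 and 3.

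Cxcr3 (chromosome X, 101731535 to 101734147, minus strand), the receptor of effector T and NK cells for Cxcl9, Cxcl10 and Cxcl11, stood at 2.58, 1.18, 1.53, 0.769 and 0.722 CPM in wild-type libraries 1 to 5 and at 0.507, 1.13 and 0.334 CPM in het-labelled libraries 1 to 3. Xcr1 (chromosome 9, 123852315 to 123862029, minus strand), the Xcl1 receptor of cross-presenting dendritic cells, stood at 1.38, 2.16, 2.80, 0.604 and 0.783 CPM and at 0.691, 0.861 and 0.477 CPM in the same order. For both genes the wild-type libraries 4 and 5 lay at the level of the het-labelled ones. On the log2 scale the differences were −1.06 (SE 0.57; adjusted p = 0.369, edgeR) for Cxcr3 and −1.20 (SE 0.56; adjusted p = 0.326, edgeR) for Xcr1. Against wild-type libraries 2, 4 and 5 they were −0.50 and −0.86, and against wild-type libraries 1 and 3 they were −1.70 and −1.69.

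The receptors outside the rule for genes shown by library were Ccr7, which brings dendritic and T cells to lymph nodes, at −0.999 (SE 0.65), Cxcr6, the Cxcl16 receptor of resident T and NKT cells, at −0.90 (SE 0.57), the gut-homing receptor Ccr9 at −0.85 (SE 0.61) and the eosinophil receptor Ccr3 at −0.21 (SE 0.60). Cxcr2, the neutrophil receptor for Cxcl1 and its relatives, was the exception at 0.21 (SE 0.48). The value of Cxcr2 rested on het-labelled library 2, with 2.10 CPM against 0.553 and 0.667 in libraries 1 and 3, and was −0.63 without it. Ccr3 turned to 0.64 and Cxcr2 to −0.08 against wild-type libraries 1 and 3, and Cxcr2 to −0.06 in limma-voom. Without het-labelled library 2 Cxcr6 had −1.70. Cxcr6 overlaps Fyco1 on the opposite strand over its whole length.

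The 4 atypical receptors were all tested and none met the unadjusted limit, with a median log2 fold change of −0.19 and a range of −0.57 to 0.19. Ackr1, which binds many inflammatory chemokines on venules and red cells, had 1.82, 1.24, 0.784, 1.59 and 0.722 CPM in wild-type libraries 1 to 5 and 1.15, 0.538 and 1.43 CPM in het-labelled libraries 1 to 3. Ackr2, a scavenger of inflammatory CC chemokines, had 2.58, 1.91, 2.84, 1.92 and 2.83 CPM and then 2.35, 1.83 and 2.38 CPM. Ackr3, which removes Cxcl12, had 1.69, 3.61, 2.39, 1.04 and 1.38 CPM and then 1.43, 1.67 and 1.00 CPM. For each of the 3 the groups overlapped. Their log2 fold changes were −0.24 (SE 0.45), −0.14 (SE 0.26) and −0.57 (SE 0.43), and the first was 0.07 without het-labelled library 2. Ackr4, a scavenger of Ccr7 ligands that overlaps Acad11 on the opposite strand over its whole length, had 0.19 (SE 0.37).

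**Figure D3:**
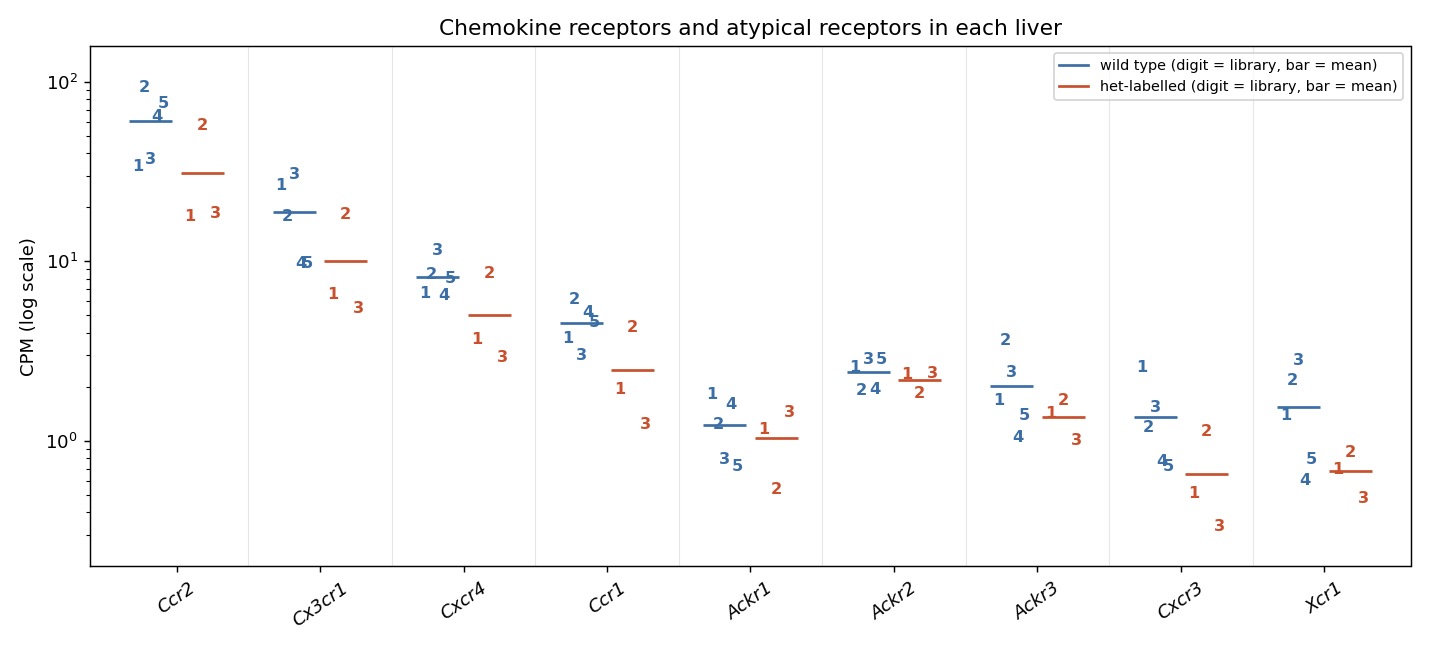
CPM on a log scale of the 6 receptors and 3 atypical receptors described by library, with digits for libraries (blue, wild type; red, het-labelled) and bars for group means. For all 6 receptors het-labelled library 2 is the highest of its group, and het-labelled libraries 1 and 3 lie below every wild-type library for all but Xcr1.

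The 12 genes that did not pass the filter on low counts were the ligands Ccl11, Ccl12, Ccl17, Ccl20, Cxcl13 and Cxcl17 and the receptors Ccr1l1, Ccr4, Ccr6, Ccr8, Cxcr1 and Cxcr5. Their counts over the 8 libraries summed to between 10 and 66, and edgeR gives no test for them. Ccr6, the receptor of B cells and Th17 cells for Ccl20, was named after its values were seen: it had 8, 5, 14, 8 and 2 counts in wild-type libraries 1 to 5 and 2, 1 and 0 in het-labelled libraries 1 to 3. Its CPM ranges did not overlap, 0.1204 to 0.523 in wild type and 0 to 0.0922 in the het-labelled libraries. DESeq2 gave Ccr6 an unadjusted p of 0.00845 and no adjusted p.

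Ligands were next set beside the receptors they are known to bind, in 33 pairs taken from general knowledge of the family. Of the 21 pairs with both genes tested, 14 had both fold changes below 0 and 2 had both above 0 (Cxcl1 and Cxcl2, each with Cxcr2). Ccl2 with Ccr2 had −0.96 and −0.96, Cxcl16 with Cxcr6 −0.91 and −0.90, and Xcl1 with Xcr1 −1.41 and −1.20. Cxcl12 with Cxcr4 (0.10 and −0.71), Cxcl11 with Cxcr3 (0.34 and −1.06) and Ccl25 with Ccr9 (0.32 and −0.85) lay on opposite sides of 0. Several pairs share a receptor, so the pairs are not independent of each other, and the counts carry no test.

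Many of these genes lie in groups of neighbours. The largest, on chromosome 9, includes Ccr9, Cxcr6, Xcr1, Ccr1, Ccr1l1, Ccr3 and Ccr2, and all 7 genes tested there had fold changes below 0, from −1.20 to −0.21. The chromosome 8 group (94745684 to 94812036) of Ccl22, Cx3cl1 and Ccl17 had both tested genes below 0. The chromosome 11 groups of CC ligands had 3 of 3 and 5 of 5 tested genes below 0, and the chromosome 5 groups of CXC ligands had 1 of 3 and 2 of 3. These counts carry no test, and neighbours are in part expressed by the same cells.

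**Figure D4:**
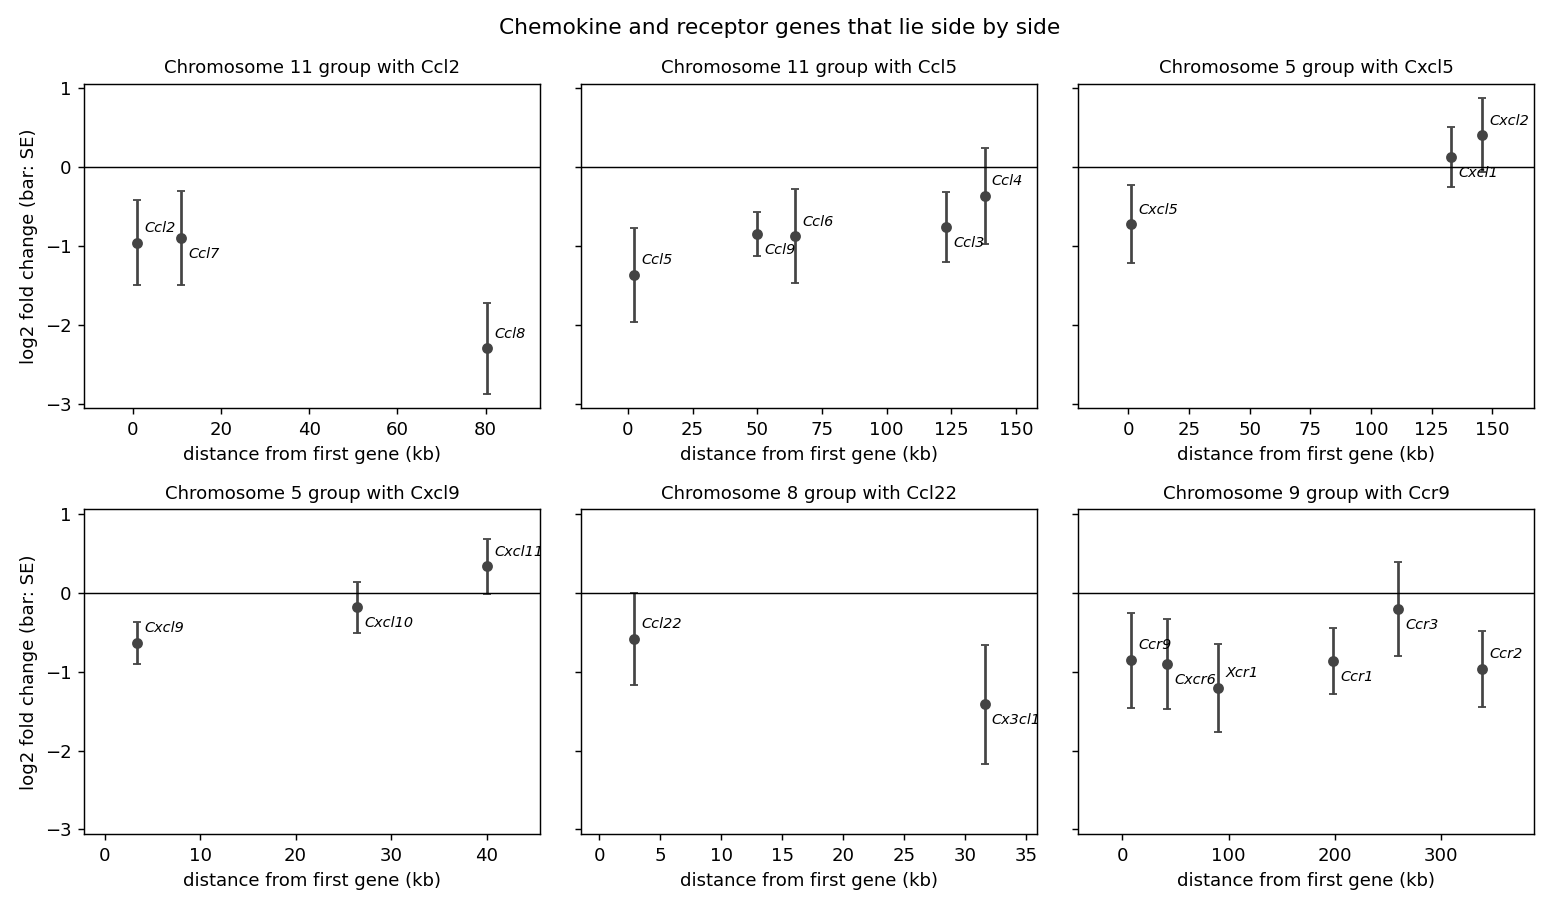
Log2 fold change (points) with its SE (bars) of tested genes against distance in kb from the first gene of 6 groups of neighbours. All points of the chromosome 11, 8 and 9 groups lie below 0, and those of the chromosome 5 groups lie on both sides.

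As summed levels, the receptors gave between 38.8 and 60.8 RPKM in wild-type libraries and 17.2, 43.2 and 17.0 RPKM in het-labelled libraries 1 to 3. The ligands without Ccl6, Ccl9 and Cxcl12, the 3 most abundant, gave between 91.1 and 103.65 RPKM in wild type and 56.9, 81.0 and 62.4 RPKM in the het-labelled libraries. Without those 3 genes the ligand sum was lower in every het-labelled library than in any wild-type one. All ligands together gave between 201 and 328 RPKM in wild type and 152, 218 and 159 RPKM in het-labelled libraries 1 to 3, so that library 2 was inside the wild-type range, as it was in the receptor sum. The 4 atypical receptors gave between 2.61 and 3.77 RPKM in wild type and between 2.32 and 2.90 RPKM in the het-labelled libraries.

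Related genes under other names were examined as lists, whose counts stand against 5.43% of all genes tested as lower and 10.3% as higher at an unadjusted p under 0.05. Of 15 other chemoattractants and their receptors, 3 met an unadjusted p under 0.05 as lower and 0 as higher, with a median log2 fold change of −0.17. The 3 were Gpr183, an oxysterol receptor of lymphocytes, at −1.12 (SE 0.45), the complement receptor C3ar1 at −0.84 (SE 0.34) and the platelet chemokine Pf4 at −0.97 (SE 0.39). S1pr1, the sphingosine phosphate receptor of endothelium and lymphocytes, had 0.39 (SE 0.17) without meeting the limit. Of 25 genes of receptor signalling, 6 were lower and 0 higher, with a median of −0.34. Among them Pik3cg, the leukocyte PI3 kinase that Gi-coupled receptors activate, had −0.86 (SE 0.29), the regulator of G protein signalling Rgs14 −1.11 (SE 0.39) and the G protein subunit Gng2 −0.58 (SE 0.23). Without het-labelled library 2, an alternative chosen for the lists after seeing the data, the signalling list had 13 of 25 lower. In that fit 11.1% of all genes tested were lower. Without library 1 or library 3 the signalling list had 0 lower, where 1.5 and 1.67% of all genes were. With all 8 libraries, none of these lists had a gene past an adjusted p of 0.05 in edgeR. Against wild-type libraries 2, 4 and 5 the signalling list had 1 higher and 2 lower past it. In that fit 2632 of 13922 genes tested passed in either direction.

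Of 20 genes of leukocyte adhesion and ligand shedding, 4 met an unadjusted p under 0.05 as lower and 1 as higher, with a median log2 fold change of −0.30, against 5.43% and 10.3% of all genes tested. The integrin chain Itga4 stood at 50.4 ± 5.64 CPM (SD, n = 5) for wild type and 29.3 ± 10.4 CPM (SD, n = 3) for the het-labelled group, with a log2 fold change of −0.78 (SE 0.22). Its endothelial partner Vcam1 stood at 144 ± 31.4 and 83.5 ± 15.6 CPM, also with −0.78 (SE 0.22). Sdc4, a heparan sulfate proteoglycan that holds chemokines, was the higher one at 0.54 (SE 0.16). Of 18 tested genes of the signals that induce chemokines, 2 were lower and 1 higher, with a median of −0.22. The Toll-like receptors Tlr2 and Tlr4 had −0.55 (SE 0.22) and −0.82 (SE 0.36), the NF-kB subunit Relb −0.72 (SE 0.32) without meeting the limit, and the interleukin 1 receptor Il1r1 0.50 (SE 0.16). Il17a was at 0 in every library, and with all 8 libraries 0 genes of these lists passed the adjusted threshold in edgeR. Against wild-type libraries 2, 4 and 5, 4 adhesion and shedding genes and 2 inducing genes passed it as lower and 0 as higher. In that fit 10.5% of all genes tested were called lower.

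Median log2 fold changes were below 0 for markers of monocytes, neutrophils and T, NK, B, dendritic, bile duct and stellate cells. The lowest was that of bile duct cells at −1.01. Medians were above 0 for markers of Kupffer cells, sinusoidal endothelium and hepatocytes. In whole liver RNA fewer cells of a type and less RNA per cell cannot be told apart. Counts of markers stand against 5.43% of all genes tested as lower and 10.3% as higher at an unadjusted p under 0.05. Monocyte and recruited macrophage markers (11 of 11 tested below 0, 3 at an unadjusted p under 0.05, median log2 fold change −0.63) summed to between 717 and 1409 CPM in wild-type libraries and to 332, 1008 and 372 CPM in het-labelled libraries 1 to 3. Among them Ly6c2 had −1.02 (SE 0.37), Fcgr1 −0.63 (SE 0.26), Lyz2 −1.16 (SE 0.50) and Trem2 −0.83 (SE 0.44). As for Ccr2, het-labelled libraries 1 and 3 lay below every wild-type library and library 2 lay among them. Without library 2 the monocyte list had a median of −1.36 and 10 of 11 lower, where 11.1% of all genes tested were lower. Without library 1 or library 3 it had 0 of 11, where 1.5 and 1.67% of all genes were lower. Kupffer cell markers were split in sign, with 4 of 8 below 0 and a median of 0.23. At an unadjusted p under 0.05, 0 were lower and 2 (C6 and Cd163) higher. Against wild-type libraries 2, 4 and 5, 2 were lower and 2 higher, where 2606 and 2622 of 13922 genes tested were. The Kupffer median was 0.08 there, 0.70 against wild-type libraries 1 and 3 and 0.02 with library totals alone. These markers summed to between 486 and 1695 CPM in wild type and to between 760 and 913 CPM in the het-labelled libraries. C6, a complement component, had 0.72 (SE 0.19; DESeq2 adjusted p = 0.0498), Cd163 3.63 (SE 1.36), Timd4 1.40 (SE 0.76) and Cd5l −0.93 (SE 0.53). Of the remaining markers Marco had 0.68 (SE 0.57), while Vsig4 had −0.47 (SE 0.58), Folr2 −0.22 (SE 0.46) and Clec4f −0.25 (SE 0.71). Cd163 rested on het-labelled libraries 1 and 3, with 22.4 and 17.6 CPM, against 0.430 CPM in library 2 and 0 to 3.57 CPM in wild type. C6 did not follow Clec4f among the wild-type libraries. It was highest in library 1 (297 CPM) and lowest in library 5 (196 CPM), where Clec4f had 52.2 and 299 CPM.

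T cell markers (11 of 11 below 0, 2 at an unadjusted p under 0.05, median log2 fold change −0.90) summed to between 15.4 and 39.2 CPM in wild type and to 11.8, 27.3 and 11.4 CPM in het-labelled libraries 1 to 3. The costimulatory receptor Cd28 had −1.13 (SE 0.32; DESeq2 adjusted p = 0.0475), Cd5 −1.88 (SE 0.65), Cd3g −1.19 (SE 0.53) and Lck −0.95 (SE 0.51). The T cell median was −0.35 against wild-type libraries 2, 4 and 5 and −1.35 against wild-type libraries 1 and 3. NK cell markers (6 of 6 tested below 0, 3 at an unadjusted p under 0.05, median −0.99) summed to between 13.7 and 22.3 CPM in wild type and to between 6.73 and 9.09 CPM in the het-labelled libraries, without overlap. Klrk1 had −1.10 (SE 0.33), Ncr1 −1.43 (SE 0.59), Nkg7 −1.60 (SE 0.67) and Gzma −0.70 (SE 0.44), and Klra8 was at 0 in every library. These are the cells known for Ccl5, Xcl1 and Cxcr3.

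B and plasma cell markers had 1 of 7 lower at an unadjusted p under 0.05 (Ms4a1, −1.13, SE 0.43) and a median log2 fold change of −0.58, with sums of 8.51 to 14.9 CPM in wild type and 6.59 to 9.63 CPM in the het-labelled libraries. Dendritic cell markers had 1 of 8 lower (Clec9a, −0.40, SE 0.16) and a median of −0.33, with sums of 32.8 to 47.5 CPM and 30.5 to 37.1 CPM. Neutrophil markers had 0 of 6 tested at the limit and a median of −0.38, with sums of 20.9 to 61.7 CPM and 16.7 to 40.6 CPM. S100a8 and S100a9, the most abundant neutrophil genes, had −0.92 (SE 0.74) and −0.67 (SE 0.69). The neutrophil median was −0.55 against wild-type libraries 2, 4 and 5 and turned to 0.97 against wild-type libraries 1 and 3.

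Among the resident cells of liver, bile duct markers had 0 of 8 tested at the limit, a median log2 fold change of −1.01 and sums of 33.5 to 191 CPM in wild type and of 40.9, 91.6 and 44.1 CPM in het-labelled libraries 1 to 3. Cftr had −1.89 (SE 0.94) and Krt19 −1.62 (SE 1.02). Wild-type libraries 4 and 5 were lowest of all 8 libraries there. For Cx3cl1, which injured bile duct cells are known to make, they were lowest only within wild type. They had 1.76 and 2.71 CPM of Cx3cl1, and het-labelled library 3 had 1.72 CPM. The bile duct median was −0.01 against wild-type libraries 2, 4 and 5 and −1.78 against wild-type libraries 1 and 3. Without het-labelled library 2 it was −2.50, with 6 of 9 lower at an unadjusted p under 0.05. In that fit 11.1% of all genes tested were lower. Without library 1 or library 3 the bile duct list had 0 lower, where 1.5 and 1.67% of all genes were. Stellate cell and fibroblast markers had 1 of 9 higher (Reln, 0.38, SE 0.17) and a median of −0.07, with sums of 1033 to 1214 CPM and of 849, 1362 and 671 CPM. The stellate median was 0.34 and −0.43 against the same wild-type libraries. Sinusoidal endothelial markers had 1 of 10 higher (Lyve1, 0.46, SE 0.20) and a median of 0.28, with sums of 649 to 770.3 CPM and 658 to 944 CPM. Both counts were near the 10.3% of all genes that were higher. Hepatocyte markers had 3 of 9 higher (Cyp2e1 at 1.59, SE 0.30, Ttr at 0.85, SE 0.23, and Hnf4a at 0.52, SE 0.20) and a median of 0.41, with sums of 44258 to 50140 CPM in wild type and of 80243, 48090 and 70876 CPM in het-labelled libraries 1 to 3. Without library 2, 6 of the 9 were higher at an unadjusted p under 0.05, where 1969 of all 14746 genes tested were higher. Het-labelled libraries 1 and 3, with the most hepatocyte RNA, were those with the least chemokine receptor RNA. The part of these cell type markers in the chemokine differences was not tested.

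**Figure D5:**
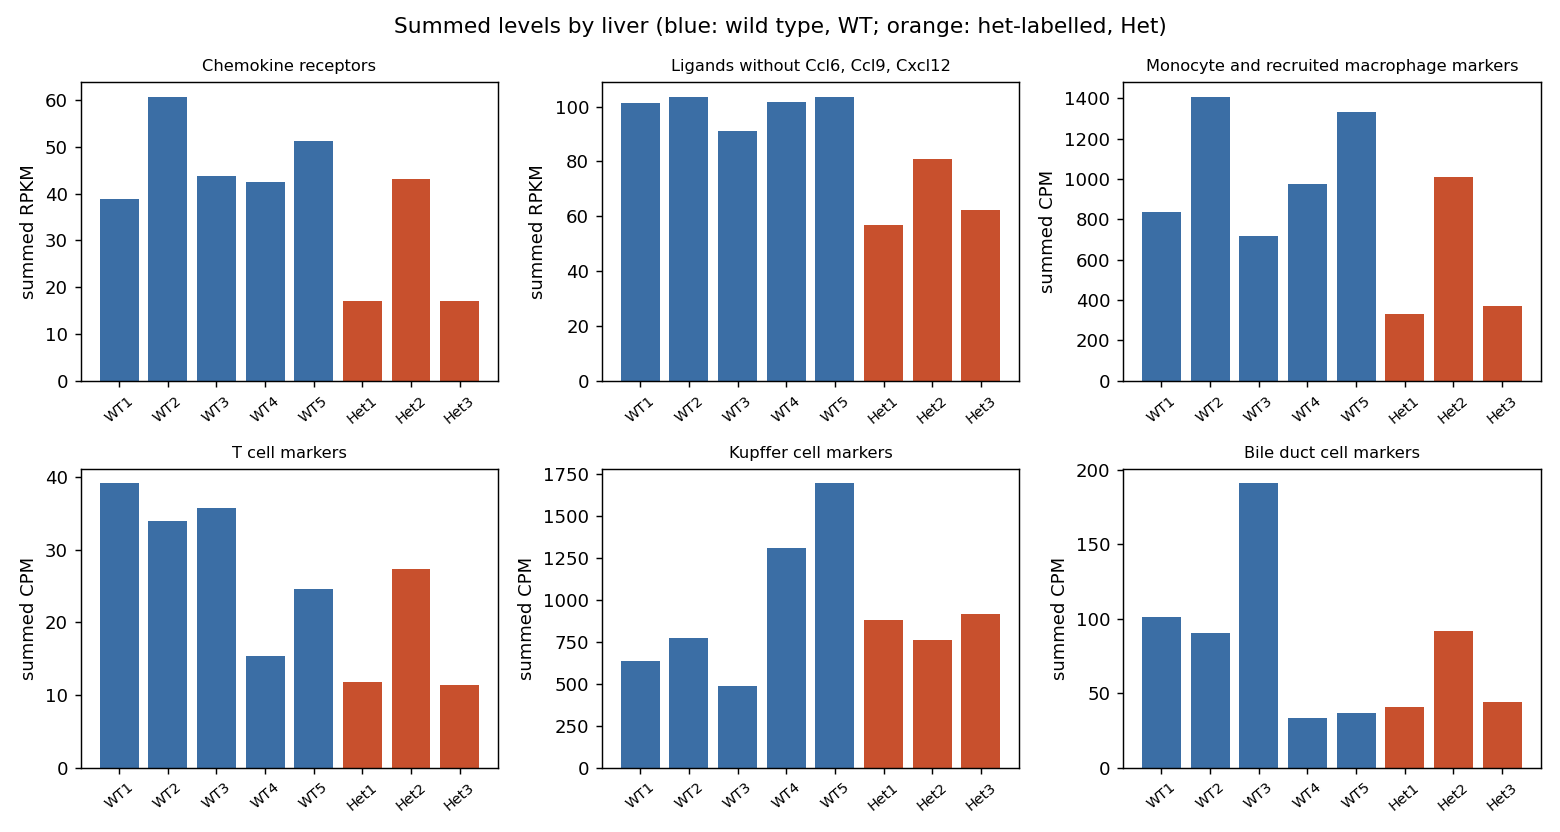
Summed levels in each of the 8 libraries (blue bars, wild type; orange bars, het-labelled) of chemokine receptors and of ligands without Ccl6, Ccl9 and Cxcl12 (RPKM), and of markers of monocytes and macrophages, T cells, Kupffer cells and bile duct cells (CPM). Het-labelled libraries 1 and 3 are lower than every wild-type library in the receptor, monocyte and T cell panels, where library 2 lies inside the wild-type range.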

How the data were processed

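Messenger RNA of 8 mouse livers was sequenced, and gene-level tables were deposited for 25078 genes. The submitters' processing notes name STAR, HTSeq, bcl2fastq 2.18.0.12 and the build mm10. No source used here states the annotation, strand setting or the versions of STAR and HTSeq. The authors deposited raw counts per gene (totals of 17508221 to 24916239 per library) and RPKM values, which follow from each count by its exon length and a single factor for each library, equal to an effective total of 0.888 to 1.25 times the count total. They also deposited each gene's total exon length. Unused sample columns numbered 0. Groups came from the genotype label, with replicates numbered in accession order. The p-values reflect only the spread among these 8 mice, which holds differences between animals and may hold technical ones as well. Replicate pairs differed beyond counting noise (chi-square per degree of freedom of at least 21.3 among wild-type and 31.7 among het-labelled pairs, over genes summing to 20 counts or more), so each library counts as 1.

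From the deposited counts, edgeR's filterByExpr kept genes at its minimum count of 10 and minimum total of 15, TMM scaled them (factors 0.852 to 1.27), and the robust, two-sided quasi-likelihood test of edgeR was applied with Benjamini-Hochberg adjustment over all 14438 genes at 0.05. Versions were edgeR 4.0.16, DESeq2 1.42.0 and limma 3.58.1 in R 4.3.3, with Python 3.11.15 and matplotlib 3.10.9 for figures. The scripts were tested on simulated data with known changes. Alternatives were RLE scaling, library totals alone, DESeq2, limma-voom, 2 other filters, no robust estimation, limma on log2 of deposited RPKM with pseudocounts of 0.1 and 1, removal of Rn45s and Rpph1, wild-type libraries 2, 4 and 5 or 1 and 3 as the only wild type, an adjusted p of 0.10 and each library left out. Genes shown by library were Ccl2, Ccl8 and Cxcl16, the 12 with the smallest p, and the 3 with the highest RPKM of each class. For each list up to 4 genes with the smallest p are named, and for Kupffer cells the other markers too. The genes and lists (other chemoattractants, receptor signalling, adhesion and shedding, inducing signals, and markers of 11 cell types) were chosen with earlier results of these data known. Promoter windows of 250 bases are RefSeq's, with 39 of 52 genes matched by symbol, and a motif match needed every letter. The hepatocyte gene Tf was not analysed here. A few genes that these rules name are not reported here, but they are included in the counts, medians and summed levels.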

Additional observations from a re-analysis of the deposited data

Results flagged for a closer look

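Among the 40 tested genes, the 5 wild-type libraries were examined for a value far from the rest with Dixon's criterion (critical value 0.71 for 5 samples). By chance about 1 in 20 groups is marked, and 2 of 40 were. Ccl4, a macrophage inflammatory protein, stood at 1.38 CPM in wild-type library 1, where the nearest wild-type value was 0.672 CPM. Cxcr2, the neutrophil chemokine receptor, stood at 1.38 CPM in wild-type library 3, where the nearest was 0.903 CPM. Both rest on few counts, 31 for Ccl4 and 37 for Cxcr2 in the library concerned.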

How the results depend on the processing

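At an adjusted p of 0.05 edgeR passed 0 of the 40 tested genes and DESeq2 passed 1, and at an unadjusted p under 0.05 edgeR had 6 of them lower and DESeq2 13 of all 52 (11 of the 40). Against wild-type libraries 2, 4 and 5 alone 5 passed the adjusted threshold and 10 were lower at the unadjusted one, and against wild-type libraries 1 and 3 alone these were 0 and 10. In limma on log2(RPKM + 1), which understates changes of low genes, the median log2 fold change was −0.24 instead of −0.74. With each library left out in turn, 0 passed the adjusted threshold, lower genes numbered 2 to 15 (221 to 1633 of all genes), higher genes 0 to 1 (573 to 1969 of all genes), and the median ran from −1.12 (without het-labelled library 2) to −0.53. Library totals alone moved the median of all genes to −0.18 and the split of all genes at an unadjusted p under 0.05 from 1487 higher and 784 lower to 427 and 1198. With RLE scaling the split was 1148 and 973, and in DESeq2 1333 and 1373. The cause of these shifts was not tested. Of 788 single-gene values under the alternatives, 746 kept direction and side of the threshold, 36 changed sign, 6 newly passed the threshold and 0 lost it. Ccl27a changed sign with RLE scaling (−0.037), library totals alone (−0.17), DESeq2 (−0.026), a mean of at least 1 CPM (−0.0037), RPKM with pseudocounts of 0.1 and 1 (−0.013 and −0.010) and wild-type libraries 2, 4 and 5 (−0.19). Library totals alone turned Cxcl12 (−0.11) and Cxcl1 (−0.027), and limma-voom turned Cxcr2 (−0.062). Wild-type libraries 2, 4 and 5 alone turned Cxcl1 (−0.23), Cxcl10 (0.20), Cxcl2 (−0.039), Ccl24 (0.064) and Ccl22 (0.038). Wild-type libraries 1 and 3 alone turned Ccl6 (0.47), Cxcl12 (−0.24), Ccl2 (0.20), Cxcr2 (−0.082) and Ccr3 (0.64). Leaving out 1 library gave ranges across 0 for Ackr1 (−0.53 to 0.074), Ackr4 (−0.031 to 0.34), Ccl24 (−0.43 to 0.11), Ccl27a (−0.12 to 0.16), Ccl4 (−1.12 to 0.12), Ccr3 (−0.74 to 0.17), Cxcl1 (−0.19 to 0.34), Cxcl10 (−0.36 to 0.056), Cxcl14 (−0.63 to 0.11) and Cxcr2 (−0.63 to 0.54). No paired analysis was possible because the replicate numbers were given in accession order and do not tie samples across genotypes. Ccl8, Ccl12, Ccr6 and Xcl1 rest on few counts, which limits their fold changes.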
